A study of Mus musculus with 16 samples.

Results

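The levels of 4 mature microRNA rows were examined, mmu-miR-101a-3p, mmu-miR-101b-3p, mmu-miR-101a-5p and mmu-miR-153-3p. These 4 rows were taken by their exact names from a table of 18488 non-coding RNA features, 1254 of which were mature miRNA rows, because miR-101 and miR-153 are reported repressors of App, the gene of the amyloid precursor protein. All 4 names were found. Small RNA libraries came from the prefrontal cortex of 16 mice, 8 PS19 and 8 wild-type (WT), 1 library per mouse. PS19 mice (PS19Vle/J, with a Prnp-MAPT*P301S transgene on a B6;C3 background) were heterozygous (PS19+/-), and the mouse prion promoter drives their mutant human tau. The WT controls were littermates without the transgene. Both groups were untreated, about 9.6 months old, had equal numbers of males and females, and were perfused before about 10 mg of frozen cortex was taken. A tissue block of this kind mixes all cortical cell types, so that fewer cells of a type and less RNA per cell cannot be told apart.

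A miRNA guides Argonaute to mRNAs whose 3′ untranslated region (UTR) pairs with the seed of the miRNA, bases 2 to 8 from its 5′ end, and the bound mRNA is translated less or degraded. Each miRNA is cut from a hairpin precursor with a 5p arm and a 3p arm, and usually one arm is kept while the other is lost. Both present in brain, miR-101 and miR-153 are known from reporter assays as repressors of App, and the membrane protein that App encodes is the source of amyloid-β. Neither the App mRNA nor its protein was analysed here, so the levels below are those of the miRNAs alone.

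The mature sequences are shown because their seeds set which site each row could pair with, and because the rows share bases that bear on how reads are assigned. They were taken from RefSeq (GRCm38.p6), where all 7 mature names of miR-101 and miR-153 rows were found, and capitals mark the seed.
mmu-miR-101a-3p: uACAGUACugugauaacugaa
mmu-miR-101b-3p: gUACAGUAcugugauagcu
mmu-miR-101c: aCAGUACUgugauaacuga
mmu-miR-153-3p: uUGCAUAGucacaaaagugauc
mmu-miR-101a-5p: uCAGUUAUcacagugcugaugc
mmu-miR-101b-5p: uCGGUUAUcaugguaccgaugcu
mmu-miR-153-5p: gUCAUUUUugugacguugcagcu
No pair of the 4 chosen rows shared a seed as annotated. The annotated miR-101b-3p starts 1 base upstream of miR-101a-3p, so that its seed is shifted by 1 base within a common run of 15 bases. Counted from the 5′ end of miR-101a-3p, the only difference in the overlap is A16G. The whole 19 bases of miR-101c lie inside bases 2 to 20 of miR-101a-3p. Reads trimmed at an end can therefore match more than 1 of the miR-101 rows, and their separate levels are uncertain to that extent. The longest run shared by miR-153-3p with miR-101a-3p was 5 bases.

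The 3 hairpins of the 4 chosen rows lie in separate genomic hosts in GRCm38. Mir101a is at chr4:101346945-101347027 on the minus strand, inside an exon of the lincRNA E130102H24Rik. Mir101b is at chr19:29135279-29135375 on the plus strand, in an intron of Rcl1, a gene of ribosomal RNA processing. Mir153 is at chr12:117250817-117250885 on the plus strand, in an intron of Ptprn2, a protein of dense-core vesicles, and opposite an intron of the antisense gene Gm5441. The mature miR-101c is placed elsewhere, at chr9:3038680-3038698 on the minus strand.

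Sites for the seeds were looked for in the 3′ UTR of App, 888 bases in transcript App-201 (GRCm38, chr16:84954443-84955330, minus strand). The motif of each row was the reverse complement of its seed, searched on the transcript strand only. GTACTGT, for miR-101a-3p, occurred once, at UTR bases 255 to 261. TACTGTA, for miR-101b-3p, occurred at bases 256 to 262, where it overlaps the first motif, and again at bases 545 to 551. CTATGCA, for miR-153-3p, occurred once, at bases 476 to 482. ATAACTG, for miR-101a-5p, was not in this UTR. These sites are shown, in the sense of the mRNA, because they are the stretches the 3p arms could pair with, and capitals mark the motif.
miR-101a-3p site: attcatgggttttgtGTACTGTa
miR-101b-3p second site: tccatgactgcatctTACTGTAc
miR-153-3p site: ttcttttcctgatcaCTATGCAt
Of 10086 UTR windows of the same length, 5.83% held GTACTGT, 7.77% held TACTGTA, 5.15% held CTATGCA and 6.03% held ATAACTG. In the longest annotated App UTR, 5646 bases in App-206, the counts were 2 for miR-101a-3p, 2 for miR-101b-3p, 1 for miR-153-3p and 2 for miR-101a-5p. A match describes the letters of the UTR and is not a measured site.

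The tissue label was checked first. The cortical miRNAs miR-128-3p, miR-9-5p, miR-124-3p and miR-138-5p had a summed normalized count of 294666 to 1026090, most of it miR-128-3p and miR-9-5p. Over all libraries miR-124-3p ran from 5333 to 20737, and miR-138-5p only from 409 to 2845. The microglia and leukocyte list (miR-142a-3p, miR-142a-5p and miR-223-3p) summed to 2.83 to 15.7 and the red cell list (miR-451a and miR-144-3p) to 1.90 to 41.1. Other lists were far from 0. The oligodendrocyte list (miR-219a-2-3p and miR-338-3p) summed to 13365 to 52332 and the endothelial list (miR-126a-3p and miR-126a-5p) to 5017 to 28305. The muscle list (miR-1a-3p and miR-133a-3p) summed to 1799 to 13924, nearly all of it miR-1a-3p, and the liver miRNA miR-122-5p stood at 132.3 to 653.5. The olfactory list (miR-200a-3p, miR-141-3p and miR-429-3p) reached from 9.74 up to 116.3 in PS19 libraries, and from 15.4 up to 1081 in WT libraries. Libraries held 13.2 M to 23.1 M recovered reads, which limits low rows to a few reads.

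The 4 rows differed widely in level. Levels are normalized counts, that is reads divided by the authors' size factor of the library, with no correction for length because the rows are all 19 to 22 bases long. miR-101a-3p averaged 8183 over the 16 libraries and ranked number 53 among the 1254 mature rows. miR-101b-3p averaged 1080.0 and ranked number 117, and miR-153-3p averaged 92.5 and ranked number 273. miR-101a-5p, the other arm of the miR-101a hairpin, averaged 0.220 and ranked number 1004. The ranges of miR-101a-3p, miR-101b-3p and miR-153-3p did not overlap, so this order of levels held in every library. Together the 4 rows made up 0.201% of the miRNA signal on average.

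In miR-101a-3p, the most abundant of the rows, PS19 replicates 1 to 8 had normalized counts of 11799, 6858, 15002, 11068, 3848, 4493, 7457 and 2227. The WT values for replicates 1 to 8 were 9044, 6544, 7618, 15367, 7704, 2924, 2767 and 16207. The groups overlapped over nearly their whole range, with the lowest library in PS19 and the highest in WT. The mean was 7844 ± 4426 in PS19 mice against 8522 ± 5015 in WT mice (SD, n = 8 each). The limma difference on the log2(value + 1) scale was −0.11 (95% interval −0.95 to 0.73, adjusted p = 0.9998). As a fold this interval runs from 0.519 to 1.66 around an estimate of 0.928.

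miR-101b-3p, from the other miR-101 hairpin, had 1792, 781, 1675, 1173, 731, 596, 905 and 242 normalized counts in PS19 replicates 1 to 8. In WT the values were 1411, 1268, 1373, 1661, 988, 356, 301.3 and 2026. The same libraries were lowest as for miR-101a-3p, namely PS19 replicate 8 and WT replicates 6 and 7, and 6 of 8 PS19 libraries lay below the WT median of 1321. The mean was 987 ± 532 in PS19 mice against 1173 ± 601 in WT mice (SD, n = 8 each). The limma difference was −0.22 on the log2 scale (95% interval −1.09 to 0.65, adjusted p = 0.9998).

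miR-153-3p had 190.7, 46.5, 104.2, 71.4, 94.4, 46.5, 48.8 and 48.3 normalized counts in PS19 replicates 1 to 8. The WT values were 143.5, 127.4, 99.2, 116.6, 102.5, 42.0, 34.7 and 163.3. In 4 PS19 libraries the value lay between 46.5 and 48.8, whereas PS19 replicate 1 had the highest value of all 16 libraries. PS19 was below the WT median of 109.6 in 7 of 8 libraries, and the 2 lowest libraries were WT. The mean was 81.3 ± 49.7 in PS19 mice against 103.7 ± 45.4 in WT mice (SD, n = 8 each). The limma difference was −0.36 on the log2 scale (95% interval −1.09 to 0.37, adjusted p = 0.9998), an estimated fold of 0.779 with an interval of 0.470 to 1.29. Each library rests on 42 to 175 reads for this row, against 2922 to 17369 for miR-101a-3p.

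miR-101a-5p was close to absent. It had 1 read in PS19 replicate 4, 1 in PS19 replicate 7, 2 in WT replicate 8 and 0 in the other 13 libraries. These 4 reads were 0.00307% of the reads of both miR-101a arms together (exact 95% binomial interval 0.000836% to 0.00785%). In a library with 0 reads, a count of 3 as the limit would allow a 5p share of up to 0.0196% to 0.103%, depending on the reads of the 3p arm. The intervals and limits cover counting error only. The row had too few reads for the genotype test, which required a mean of at least 5.

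**Figure D1:**
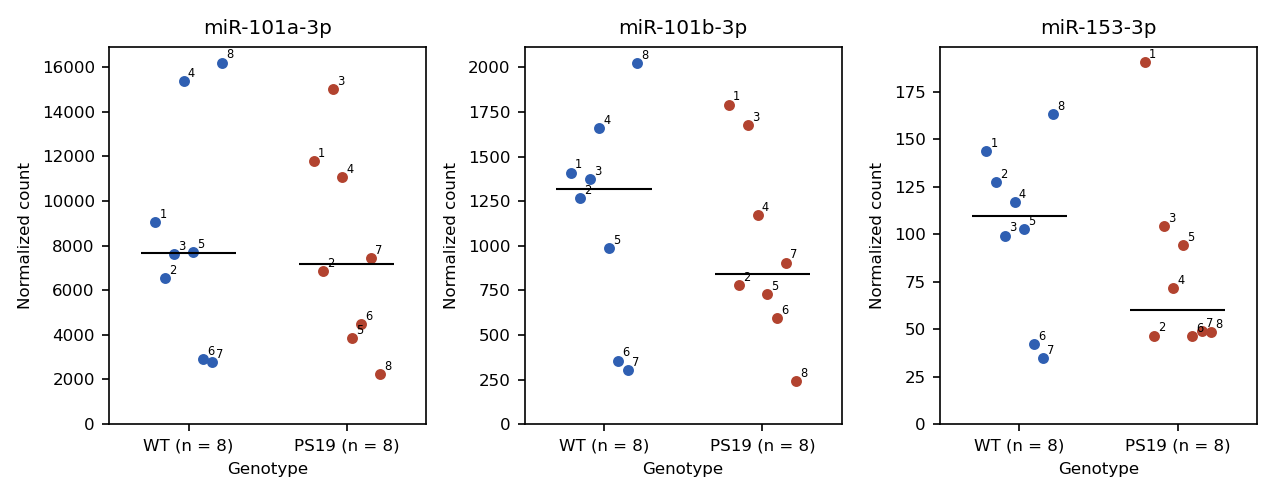
Normalized counts (y axes from 0) of miR-101a-3p, miR-101b-3p and miR-153-3p in the 8 WT and 8 PS19 libraries. Each point is 1 mouse with its replicate number and the line is the group median. The groups overlap in all 3 panels, and for miR-153-3p the medians are 60.1 in PS19 and 109.6 in WT.

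Of the 3 rows that passed the filter on low values, 0 passed an adjusted p under 0.05 in limma and 0 had an unadjusted p under 0.05. Over all 6024 features tested, 0% were called at an adjusted p under 0.05, and 4% (241) had an unadjusted p under 0.05. edgeR called 0 and DESeq2 15 features at an adjusted p under 0.05, none of them one of these rows. All 3 estimates were below 0, with a median of −0.22, where the median of the miRNA rows tested was −0.12 and 66.8% of them were below 0. That median itself moved from −0.26 without WT replicate 7 to 0.0040 without PS19 replicate 8. Over all 12870 ways to assign the libraries to groups of 8, exact permutation tests (two-sided) gave p = 0.819 for miR-101a-3p, 0.661 for miR-101b-3p and 0.358 for miR-153-3p. Each of the 3 intervals spans 0. Without PS19 replicate 8, the lowest library for both miR-101 3p arms, their differences were 0.12 and 0.0400, above 0. Leaving out PS19 replicate 5 (0.0055), WT replicate 4 (0.0496) or WT replicate 8 (0.0605) also turned the sign of miR-101a-3p. Library codes in the labels began with G for all 8 PS19 but only 2 WT libraries, and what the letter marks was not stated. With the letter as a term the differences were −0.59, −0.78 and −0.76 in the same order (limma, adjusted p = 0.9999 for each), and the median of the miRNA rows was −0.34. Since all PS19 libraries carry G, differences with this term, here and below, compare PS19 with only the 2 WT libraries of letter G.

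The spread between mice was large compared with most miRNAs. Within a group, the SD of miR-101a-3p was 0.94 on the log2 scale, larger than that of 89.9% of the 317 mature rows with a mean of at least 50. For miR-101b-3p it was 0.97 and for miR-153-3p 0.77, larger than 91.2% and 72.6% of those rows. The median SD of the 317 rows was 0.67. With each library scaled to its miRNA total the SDs were 0.59, 0.56 and 0.47, and the median over the rows was 0.40.

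The levels followed the miRNA content of the library. miRNA rows held from 15.03% (WT replicate 7) to 32.6% of the signal, with 25.5% ± 5.40 in PS19 mice against 26.3% ± 6.24 in WT mice (SD, n = 8 each). Over the 16 libraries, Pearson's r between this share and log2(value + 1) was 0.87 for miR-101a-3p (permutation p = 6e-05, adjusted p = 0.00027). Spearman's rho was 0.84 (permutation p = 0.00022, adjusted p = 0.00099). For miR-101b-3p, r was 0.89 and rho 0.88 (permutation p = 2e-05 for both, the smallest that 100000 resamples can give, adjusted p = 0.00018). For miR-153-3p, r was 0.79 (permutation p = 0.0005, adjusted p = 0.0015) and rho 0.76 (permutation p = 0.00098, adjusted p = 0.00294). Adjustment was over 9 relations, 3 rows in all libraries and in each genotype.

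Without the 2 libraries farthest from the median share, r over the remaining libraries was 0.90, 0.87 and 0.76 in the same order. Within PS19, r was 0.84 for miR-101a-3p, 0.86 for miR-101b-3p and 0.77 for miR-153-3p (exact permutation p = 0.00997, 0.0059 and 0.035, adjusted p = 0.0128, 0.00885 and 0.035). Within WT it was 0.90, 0.92 and 0.83 (exact permutation p = 0.00536, 0.00268 and 0.0271, adjusted p = 0.00885, 0.00603 and 0.0305). Rank correlations within a genotype were weaker, from 0.45 to 0.81, and only that of miR-101b-3p in WT passed after adjustment (exact permutation p = 0.0218, adjusted p = 0.049). For miR-153-3p in WT the relation rests on 2 libraries, since r fell to 0.0038 without the 2 farthest in share. Without the same 2 WT libraries, r was 0.67 for miR-101a-3p and 0.68 for miR-101b-3p. The rows themselves add little to the share, but both measures come from the same library. Any row that keeps its part of the miRNA signal rises with this share. No r with the share was computed for other mature rows, so the relation is not shown to be particular to these 3 rows. The size factor of the library enters the counts but not the share.

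**Figure D2:**
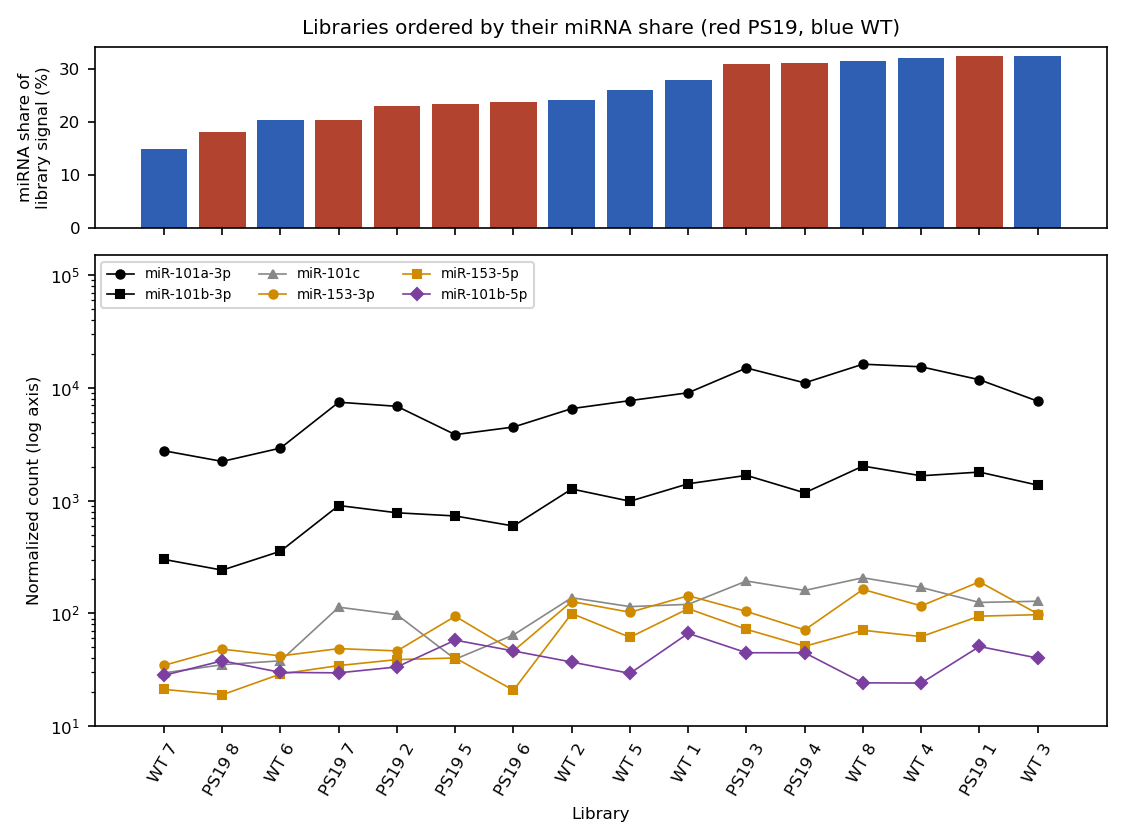
Upper panel, share of the library signal in miRNA rows (%, bars) for the 16 libraries in rising order, red for PS19 and blue for WT. Lower panel, normalized counts (log axis) of 6 rows in the same order, with 1 line per row. miR-101a-3p, miR-101b-3p and miR-101c broadly rise from left to right together, whereas miR-101b-5p stays between 24.1 and 66.6.

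miR-101a-3p and miR-101b-3p moved together between mice. The following correlations are descriptions over the 16 libraries, which share depth and miRNA content. Pearson's r on the log2 scale between miR-101a-3p and miR-101b-3p was 0.95 (0.95 within PS19 and 0.95 within WT), and it was 0.86 after scaling to the miRNA total. miR-153-3p was less like miR-101a-3p, with an r of 0.72 that was 0.54 within PS19 and 0.90 within WT, and 0.29 after scaling to the miRNA total. Its r with miR-101b-3p was 0.85, and 0.53 after that scaling.

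Other miR-101 and miR-153 rows gave a finer view of the family. miR-101c, whose annotated sequence lies inside miR-101a-3p, averaged 111.0 and was 1.02% to 2.11% of the miR-101a-3p level in each library. The precursor row of its own hairpin, mir-101c, held 55 reads in all, between 0 and 7 per library. The r between miR-101c and miR-101a-3p was 0.96. The precursor row mir-101a was 0.320 to 0.508 times the miR-101a-3p level, whereas mir-101b was 2.16 to 2.82 times the miR-101b-3p level in every library. The split of reads between a precursor row and its mature row was therefore unlike for the 2 hairpins in PS19 (0.374 ± 0.0691 and 2.47 ± 0.200, SD, n = 8) and in WT (0.378 ± 0.0478 and 2.503 ± 0.253, SD, n = 8). How the pipeline divides reads between such rows was not stated, and the comparison is of reads per row and not per length.

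The 5p arms behaved unlike each other. miR-153-5p averaged 57.8 and made up 28.3% to 49.6% of the reads of both miR-153 arms, so that both arms of this hairpin were present. miR-101b-5p averaged 39.2, and PS19 replicates 1 to 8 had 50.9, 33.6, 44.8, 44.8, 58.0, 46.5, 29.7 and 38.0 normalized counts. In WT it had 66.6, 37.1, 40.2, 24.1, 29.4, 30.0, 28.3 and 24.3. It did not follow its own 3p arm, since r between the miR-101b arms was 0.12 over the 16 libraries and −0.68 after scaling to the miRNA total. As a share of both miR-101b arms it ran from 1.18% (WT replicate 8) to 13.6% (PS19 replicate 8), which are the libraries with the highest and the lowest level of the 3p arm. The row rests on 24 to 59 reads per library.

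None of the 6 other miR-101 and miR-153 rows tested (5 from the same hairpins, and miR-101c) passed an adjusted p under 0.05 in limma, and 0 had an unadjusted p under 0.05. miR-101b-5p had 43.3 ± 9.22 in PS19 mice against 35.0 ± 14.0 in WT mice (SD, n = 8 each), a difference of 0.35 on the log2 scale (95% interval −0.13 to 0.82, limma adjusted p = 0.9998). It was the only one of the 6 with an estimate above 0. miR-153-5p had 46.5 ± 25.8 in PS19 and 69.1 ± 32.6 in WT (SD, n = 8 each), a difference of −0.56 (95% interval −1.32 to 0.20, limma adjusted p = 0.9998). Its PS19 values ran from 19.0 through a median of 39.6 to 94.6, and its WT values from 21.2 through 66.6 to 110.2, so the groups overlapped. The precursor rows mir-101a, mir-101b and mir-153 differed by −0.13, −0.23 and −0.08, and miR-101c by −0.17. With the code letter as a term these were −0.67, −0.69, −0.89 and −0.78, and miR-153-5p was −0.93.

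Ratios within a library do not depend on how the libraries are scaled. The miR-101b-3p share of miR-101a-3p plus miR-101b-3p was 11.4% ± 2.19 in PS19 mice against 12.2% ± 2.47 in WT mice (SD, n = 8 each). PS19 libraries lay between 9.58% and 15.97% and WT libraries between 9.76% and 16.2%, and the difference of −0.82 percentage points was within the spread (exact permutation test, two-sided, p = 0.487, with an adjusted p of 0.730 over 3 ratios). It was −1.47 without PS19 replicate 5 and −0.25 without WT replicate 2, and −1.58 in the libraries with code letter G alone (8 PS19, 2 WT). With the precursor rows mir-101a and mir-101b added, the miR-101b share was 24.5% ± 3.84 in PS19 and 26.1% ± 5.05 in WT (SD, n = 8 each, not tested). The size of the share thus depends on which rows are counted. The log2 ratio of miR-153-3p to the summed miR-101 3p arms was −6.72 ± 0.79 in PS19 mice against −6.47 ± 0.38 in WT mice (SD, n = 8 each). The difference of −0.24 was again within the spread (the same exact permutation test, p = 0.441, adjusted p = 0.730), and it was −0.40 without PS19 replicate 5 and −0.14 without PS19 replicate 7. PS19 libraries stood further apart in this ratio, with replicates 2, 3, 4 and 7 between −7.42 and −7.32 and replicates 1, 5 and 8 between −6.16 and −5.60. WT libraries lay between −7.19 and −5.94, and the difference in spread was not tested. The 5p share of the miR-101a arms was 0.0022% ± 0.0041 in PS19 and 0.00144% ± 0.00407 in WT (SD, n = 8 each; exact permutation p = 1, adjusted p = 1).

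**Figure D3:**
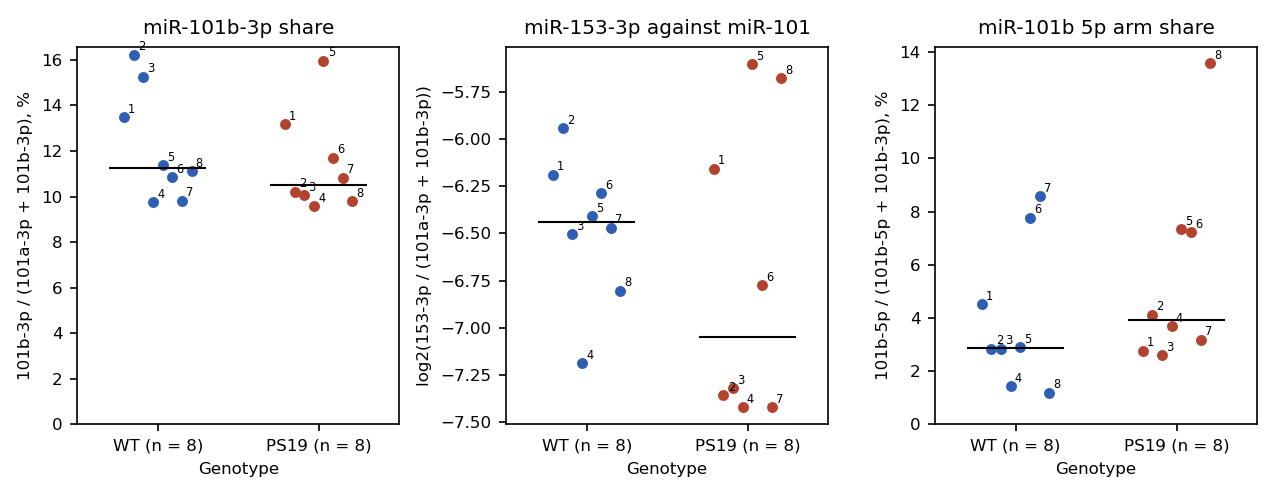
Ratios within a library, in WT and PS19 (1 point per mouse with its replicate number, line at the median): the miR-101b-3p share of both miR-101 3p arms (%), the log2 ratio of miR-153-3p to the summed miR-101 3p arms, and the 5p share of the miR-101b arms (%, not tested). The genotypes overlap in every panel, and 4 PS19 libraries lie together at the bottom of the middle panel.

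The miRNAs most like each row were found among 312 other mature rows with a mean of at least 50, by Pearson's r on log2(value + 1) over the 16 libraries. For miR-101a-3p these were miR-16-5p (0.97), miR-192-5p (0.97) and miR-21a-5p (0.96), where the median over all 312 rows was 0.67. For miR-101b-3p they were miR-192-5p (0.97), miR-872-5p (0.96) and miR-29a-3p (0.96), with a median of 0.74. For miR-153-3p they were miR-410-3p (0.95), miR-598-3p (0.92) and miR-139-5p (0.91), with a median of 0.68. After scaling to the miRNA total, miR-192-5p was first for both miR-101 rows (r of 0.96 and 0.86), and miR-410-3p for miR-153-3p (0.86). For miR-101a-3p, miR-16-5p then came only at rank 5 (0.85). The medians fell to 0.02, 0.12 and 0.15. miR-192-5p had a mean of 908 in PS19 and 899 in WT. miR-410-3p, a neuronal miRNA of the imprinted Dlk1-Dio3 cluster, had means of 154.6 and 200.9.

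Other miRNAs reported to repress App were placed beside these rows. All 12 on the list were in the table, and 10 passed the filter on low values, miR-106a-5p and miR-147-3p being too low. None of the 10 passed an adjusted or an unadjusted p under 0.05 in limma, where the smallest unadjusted value was that of miR-135a-5p. The estimates were below 0 for 9 and above 0 for 1, with a median of −0.28, beside −0.12 for all miRNA rows and −0.02 for all features. Of all 748 miRNA rows tested, 66.8% had an estimate below 0 and 18 rows had an unadjusted p under 0.05 in limma. miR-298-5p had an estimate of −0.60 (95% interval −1.59 to 0.40, limma adjusted p = 0.9998), from 374 ± 314 in PS19 and 675 ± 649 in WT (SD, n = 8 each). Without WT replicate 2 its difference was −0.29, and edgeR gave −0.89, DESeq2 −0.85 and the term for the code letter −1.23. miR-135a-5p differed by −0.55, with 91.4 ± 44.5 and 139.2 ± 80.2, and PS19 lay below the WT median in 7 of 8 libraries. Without WT replicate 3 its difference was −0.35. miR-323-3p, at a level close to miR-101b-3p, differed by −0.35, which was −0.57 without PS19 replicate 1 and −0.21 without WT replicate 3.

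The cell-cycle linked miR-17 family was low in cortex. miR-17-5p averaged 22.4, miR-20a-5p 31.0 and miR-106b-5p 11.9 normalized counts, and their differences were 0.10, −0.05 and −0.24. The seed-sharing pair miR-16-5p and miR-195a-5p differed by −0.12 and −0.07 (−0.14 for the latter with edgeR and −0.17 with DESeq2), and miR-31-5p by −0.31. Without PS19 replicate 8, miR-31-5p was −0.077 and miR-106b-5p −0.066, and without WT replicate 7 they were −0.59 and −0.44. miR-200b-3p, an epithelial miRNA, differed by −0.45 with the widest interval of the list (−2.03 to 1.13). On the recovered reads its difference was −1.25 with edgeR and −1.33 with DESeq2. Its PS19 values ran from 22.7 through a median of 198.7 to 449.8 and its WT values from 37.6 through 123.7 to 2099. Its mean was thus lower and its median higher in PS19, and without WT replicate 5 the limma difference was 0.0214. The olfactory list given above, made of the same miR-200 family, was also highest in WT, and its part in the result was not tested. Among the repressors listed, miR-298-5p, miR-16-5p, miR-323-3p, miR-200b-3p, miR-135a-5p, miR-195a-5p and the miR-101 3p arms had mean levels above that of miR-153-3p.

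**Figure D4:**
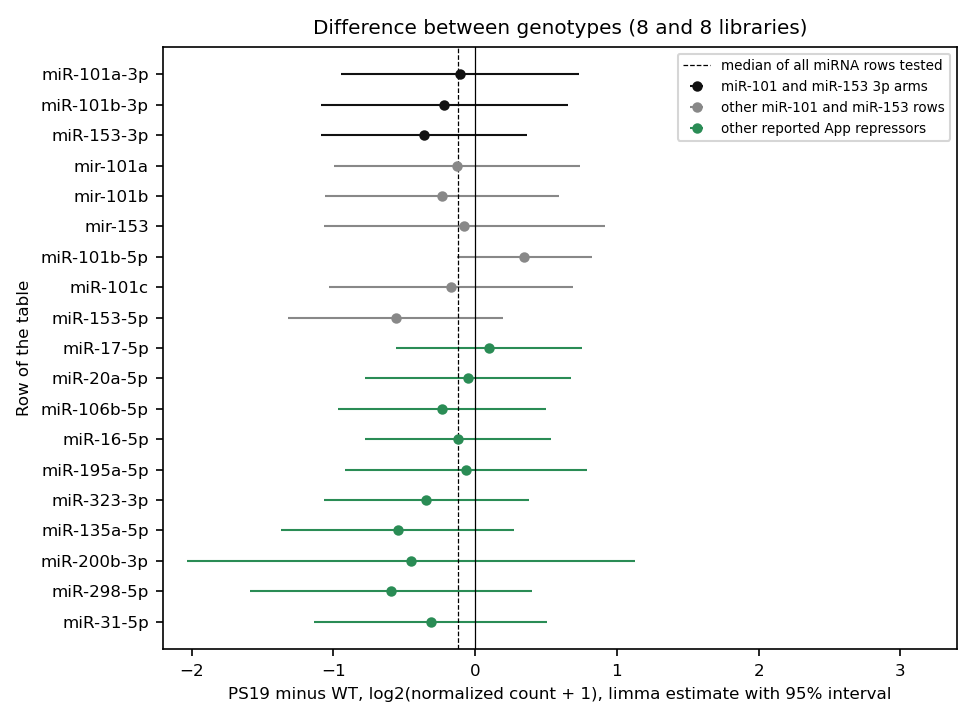
Differences between PS19 and WT (x axis, log2(normalized count + 1), limma estimate as a point and 95% interval as a line) for 3 of the chosen rows in black, 6 other miR-101 and miR-153 rows in grey and 10 other reported App repressors in green. The dashed line is the median of the miRNA rows tested, −0.12. Every interval spans 0.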

How the data were processed

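Small RNA libraries of mouse prefrontal cortex (NEBNext kit) were sequenced from 8 PS19 and 8 WT mice. Per the labels and methods, the authors aligned reads with STAR 2.5.3a, annotated them with COMPSRA on mm10 and compared genotypes with DESeq2 1.42.1. The deposited table holds a normalized signal, counts divided by 1 size factor per library, from which whole reads were recovered by division (100% of values, to within 0.1 of a whole read). The authors' own means, fold changes and p-values in that table were not used.

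On the log2(value + 1) scale, every feature averaging 5 or more across the 16 libraries was fitted with limma 3.58.1 (eBayes with trend, genotype as the only term, R 4.3.3), with Benjamini-Hochberg adjustment over all 6024. The fold change on this scale understates low rows. The fit was tested on simulated data. Ratios were tested by exact permutation, two-sided (scipy 1.17.1). Alternatives were DESeq2 1.42.0, edgeR 4.0.16, 2 other scalings, other filters and pseudocounts, the library code letter, the replicate number as a block, and each library left out in turn.

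The genes named are the 4 rows, the other rows of miR-101 and miR-153, a list of 12 reported App repressors, and the 3 mature rows most correlated with each row of mean at least 50. Members and lists were chosen with earlier results of these data known. UTRs were read from GENCODE M21 transcripts and mature sequences from RefSeq. Numbers of reads may count 1 read under several rows.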

Additional observations from a re-analysis of the deposited data

Results flagged for a closer look

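In 46 sets of 8 libraries, a value lying far from the nearest other library of its group (gap over range above Dixon's 95% critical value) was found 6 times. Chance flags about 1 in 20 groups, but these sets share rows and libraries, and 2 of the 6 come from the same 2 reads in a group whose other libraries are at 0, so the number is not compared with chance. The miR-153-3p level of 190.7 in PS19 replicate 1 lay above the next PS19 value of 104.2. The miR-101b-5p level of 66.6 in WT replicate 1 lay above the next WT value of 40.2. The 5p share of both miR-101b arms was 13.6% in PS19 replicate 8, next to 7.35%. The precursor row mir-153 was 0.254 times miR-153-3p in WT replicate 2, next to 0.130. WT replicate 8 was the only WT library with miR-101a-5p reads, giving a normalized count of 1.87 and a 5p share of 0.0115%, from 2 reads.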

How the results depend on the processing

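The differences of miR-101a-3p, miR-101b-3p and miR-153-3p stayed below 0 and past no threshold under the other scalings, filters, pseudocounts, DESeq2, edgeR and the code letter. The number of features at an unadjusted p under 0.05 (241) came to 680 with no filter, 136 at a mean of at least 20 and 124 with the code letter as a term. At an adjusted p, 0 became 15 with DESeq2. With the replicate number as a block (replicate block) 419 features had an unadjusted p under 0.05 and 0 an adjusted one. The pairing by number is not stated, the correlation of deviations was under 0.1 for 2 of 8 numbers (0.0446 and 0.0781), and 2 of 8 PS19 libraries correlated best with the same number in WT. The block left the 3 differences at −0.11, −0.22 and −0.36. Single libraries decided some signs. Leaving out 1 library gave 171 to 321 features at an unadjusted p, and differences of −0.30 to 0.12 for miR-101a-3p, −0.461 to 0.0400 for miR-101b-3p, −0.56 to −0.24 for miR-153-3p and −0.00030 to 0.0022 percentage points for the miR-101a-5p share. The miR-101b-3p share moved between −1.47 and −0.25 percentage points and the log2 ratio of miR-153-3p to miR-101 between −0.40 and −0.14. miR-101a-3p was above 0 without PS19 replicate 5 or 8 or WT replicate 4 or 8, and miR-101b-3p without PS19 replicate 8. The ranges were −0.36 to 0.11 for mir-101a, −0.46 to 0.0067 for mir-101b, −0.33 to 0.16 for mir-153 and −0.41 to 0.0205 for miR-101c. They were −0.066 to 0.24 for miR-17-5p, −0.27 to 0.14 for miR-20a-5p, −0.25 to 0.0226 for miR-16-5p, −0.23 to 0.16 for miR-195a-5p and −0.80 to 0.0214 for miR-200b-3p, and with no change of sign −0.76 to −0.35 for miR-135a-5p, −0.57 to −0.21 for miR-323-3p, −0.59 to −0.077 for miR-31-5p and −0.44 to −0.066 for miR-106b-5p. With the code letter miR-17-5p was −0.37, miR-200b-3p 0.32, miR-298-5p −1.23, miR-106b-5p −0.90, miR-31-5p −0.82, miR-135a-5p −0.81, miR-323-3p −0.57, miR-20a-5p −0.56, miR-16-5p −0.36 and miR-195a-5p −0.22, and with the miRNA total miR-20a-5p was 0.0083. mir-101a was −0.24 with edgeR and −0.25 with DESeq2, mir-153 −0.14 and −0.13, and miR-195a-5p −0.14 and −0.17. With the library total miR-106b-5p was −0.11, miR-20a-5p −0.03, miR-17-5p 0.06 and mir-153 −0.02. With the miRNA total miR-101a-3p was −0.05, mir-101a −0.08, mir-153 −0.03, miR-16-5p −0.07, miR-195a-5p −0.01 and miR-17-5p 0.15. miR-200b-3p was −1.25 with edgeR and −1.33 with DESeq2. The cause of these changes was not tested. miR-101a-5p, with 4 reads in all, was under the minimum mean of the limma fit.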
